A study of Mus musculus with 6 samples.

Results

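The 39 genes described here are the cyclins, cyclin-dependent kinases (CDKs), CDK inhibitors, pocket proteins, E2F factors, MCM helicase subunits and helicase loading factors of the cell cycle, with the proliferation marker *Mki67*. They were taken by gene symbol from the 35565 genes listed, and all 39 were abundant enough to be among the 15110 genes tested. The samples were mouse gastruloids, aggregates of embryonic stem cells (ESCs) that elongate and form derivatives of the germ layers, collected at day 5 and profiled by bulk RNA-seq. All came from the ESC line TBV2 129/SvP and had received the WNT agonist CHIR99021 once aggregated. The 3 Control libraries came from cells that the labels give as WT and the study's methods as non-targeting (NT) cells, and the 3 KD-1 libraries from 1 knockdown clone for the ultraconserved long non-coding RNA *T-UCstem1*, so the clone and the knockdown cannot be told apart. No level of the knockdown target was analysed here, so the labels were not checked against it.

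A cell enters the cycle when D-type cyclins bind CDK4 or CDK6 and phosphorylate the retinoblastoma (pocket) proteins, which frees E2F factors to transcribe the genes for DNA synthesis. E-type cyclins with CDK2 carry the cell into S phase, A-type cyclins act through S and G2, and B-type cyclins with CDK1 drive mitosis. Origins of replication are licensed in G1, when CDC6 and CDT1 load the MCM2-7 helicase, and geminin blocks further loading until the next division. Mouse ESCs have a short G1 phase with little D-type cyclin, and D-type cyclins increase as the cells leave naive pluripotency.

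Promoter sequences from RefSeq (GRCm38.p6, 250 bases before to 50 after the start) were found for 30 of the 39 genes, as 36 promoters. *Gmnn*, *Mcm4*, *Ccnd1*, *Ccnd2*, *Ccne2*, *E2f4*, *E2f5*, *Rb1* and *Ccna2* were not in the table. The E2F core was searched on both strands as TTCCCGC, in the form TTGGCGC and in the form TTCGCGC, which can overlap each other and the motif CCAAT. At least 1 form lay in 18 of the 36 promoters (50.0%), beside 8.07% of all 32851 promoters of the same length. By role, 5 of 6 promoters of MCM2-7 genes and both promoters of the loading factors held one, and 0 of 4 promoters of D-type cyclins and their kinases did. CCAAT was in 22 of the 36 (61.1%, beside 37.4% of all) and the cell cycle homology region core, written TTTGAA or in its other form TTTAAA, in 13 (36.1%, beside 27.6%). The first pair of promoters below belongs to helicase subunits that differed in opposite directions between the groups, *Mcm3* (chr1:20820263-20820562, minus strand) and *Mcm5* (chr8:75109259-75109558, plus strand), with E2F cores in capitals.

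Mcm3: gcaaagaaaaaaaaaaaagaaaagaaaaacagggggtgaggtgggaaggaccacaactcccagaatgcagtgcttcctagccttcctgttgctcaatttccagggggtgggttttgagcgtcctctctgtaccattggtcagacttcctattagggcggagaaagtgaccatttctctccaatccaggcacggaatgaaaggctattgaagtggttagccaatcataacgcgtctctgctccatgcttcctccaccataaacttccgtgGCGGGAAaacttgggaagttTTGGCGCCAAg
Mcm5: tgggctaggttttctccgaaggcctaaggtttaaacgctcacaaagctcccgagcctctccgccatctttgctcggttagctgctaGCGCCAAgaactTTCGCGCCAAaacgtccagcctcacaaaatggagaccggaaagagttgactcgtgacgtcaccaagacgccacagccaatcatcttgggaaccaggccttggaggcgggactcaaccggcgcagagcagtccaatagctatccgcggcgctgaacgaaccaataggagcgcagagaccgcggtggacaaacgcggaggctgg

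The second pair belongs to the partner kinases of the D-type cyclins, *Cdk4* (chr10:127063285-127063584, plus strand) and *Cdk6* (chr5:3343643-3343942, plus strand), neither of which held an E2F core, a CCAAT or a cell cycle homology region core. Capitals mark the palindromic E-box CACGTG, a motif searched after the sequences had been seen. It occurred 4 times in the *Cdk4* window and 1 time in the *Cdk6* window. At least 1 copy lay in 4 of the 36 promoters (11.1%, beside 7.15% of all), the others being promoters of *Cdkn2c* and *E2f3*. Whether any of these letters is bound in gastruloids was not tested.

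Cdk4: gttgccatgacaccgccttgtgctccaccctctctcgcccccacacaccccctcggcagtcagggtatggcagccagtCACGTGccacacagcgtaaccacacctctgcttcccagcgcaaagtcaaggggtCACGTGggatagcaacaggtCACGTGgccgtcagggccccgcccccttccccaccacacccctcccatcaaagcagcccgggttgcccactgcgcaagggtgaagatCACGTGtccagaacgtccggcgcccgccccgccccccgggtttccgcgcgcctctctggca
Cdk6: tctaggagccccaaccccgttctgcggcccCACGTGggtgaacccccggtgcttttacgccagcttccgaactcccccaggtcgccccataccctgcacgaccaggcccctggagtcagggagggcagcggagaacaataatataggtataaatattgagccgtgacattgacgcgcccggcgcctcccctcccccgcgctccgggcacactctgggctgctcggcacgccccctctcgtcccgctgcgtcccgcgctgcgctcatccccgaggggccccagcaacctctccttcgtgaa

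Depth ranged from 20982249 to 56674906 counts in the Control libraries and from 41180012 to 85561026 in the KD-1 libraries, and a library is named below by its depth within its group. Levels are CPM, counts scaled to the TMM-normalized library size, and 3 counts correspond to 0.145 CPM in the shallowest library and 0.0345 CPM in the deepest. The Control libraries varied more than the KD-1 libraries: the median SD over the 39 genes was 9.22% of the mean in Control and 2.87% in KD-1. The Control library of middle depth stood apart from the other Control libraries (chi-square per degree of freedom over genes 36.3 and 36.5, against 15.3 between the other pair and 4.85 to 11.1 within KD-1). Of the 39 genes it held the highest Control value for 18 and the lowest for 15.

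The largest differences between KD-1 and Control gastruloids lay among the G1 regulators, where paralogs moved in opposite directions, and most genes of the later phases differed by less than 1.5-fold. At an edgeR adjusted p under 0.05 and a fold change over 1.5 in either direction, 8 of the 39 genes (20.5%) were called, beside 37.7% of all genes tested. *Ccnd1*, *Cdk6*, *Cdkn1b*, *Rb1* and *Mcm3* rose and *Ccnd3*, *Cdk4* and *Cdkn2d* fell, 5 higher beside 19.7% of all genes and 3 lower beside 18.1%. Another 18 genes passed the adjusted p with a smaller fold, 8 higher and 10 lower, so that 26 of 39 (66.7%) passed it in all, beside 63.5% of all genes. The groups did not overlap for 28 of 39 genes, beside 70.6% of all genes. The median absolute log2 fold change was 0.32 over the 39 genes and 0.49 over all genes tested. Both shares past the adjusted p and without overlap were therefore near the background, and the share past the fold threshold was below it. Without the Control library of middle depth, 5 genes were called higher and 2 lower. Among protein-coding genes with a mean log2 CPM over 3, those with a short annotated exon length tended to be lower in KD-1. The median log2 fold change of these genes rose from -0.31 in the eighth with the shortest exons to 0.09 in the eighth with the longest. Taken relative to genes of like exon length, a setting chosen after the values were seen, 7 genes were called higher and 1 lower. *Ccnb1* and *Cdc6* were added and *Cdk4* and *Cdkn2d* lost. Only the fold change was taken relative to those genes, and the adjusted p stayed that of the edgeR test against no change. Genes below that level of abundance, *Cdkn2d* among them, were set against these more abundant genes. The part of exon length in these differences was not tested. In bulk RNA, fewer cells of a type and less RNA per cell cannot be told apart.

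**Figure D1:**
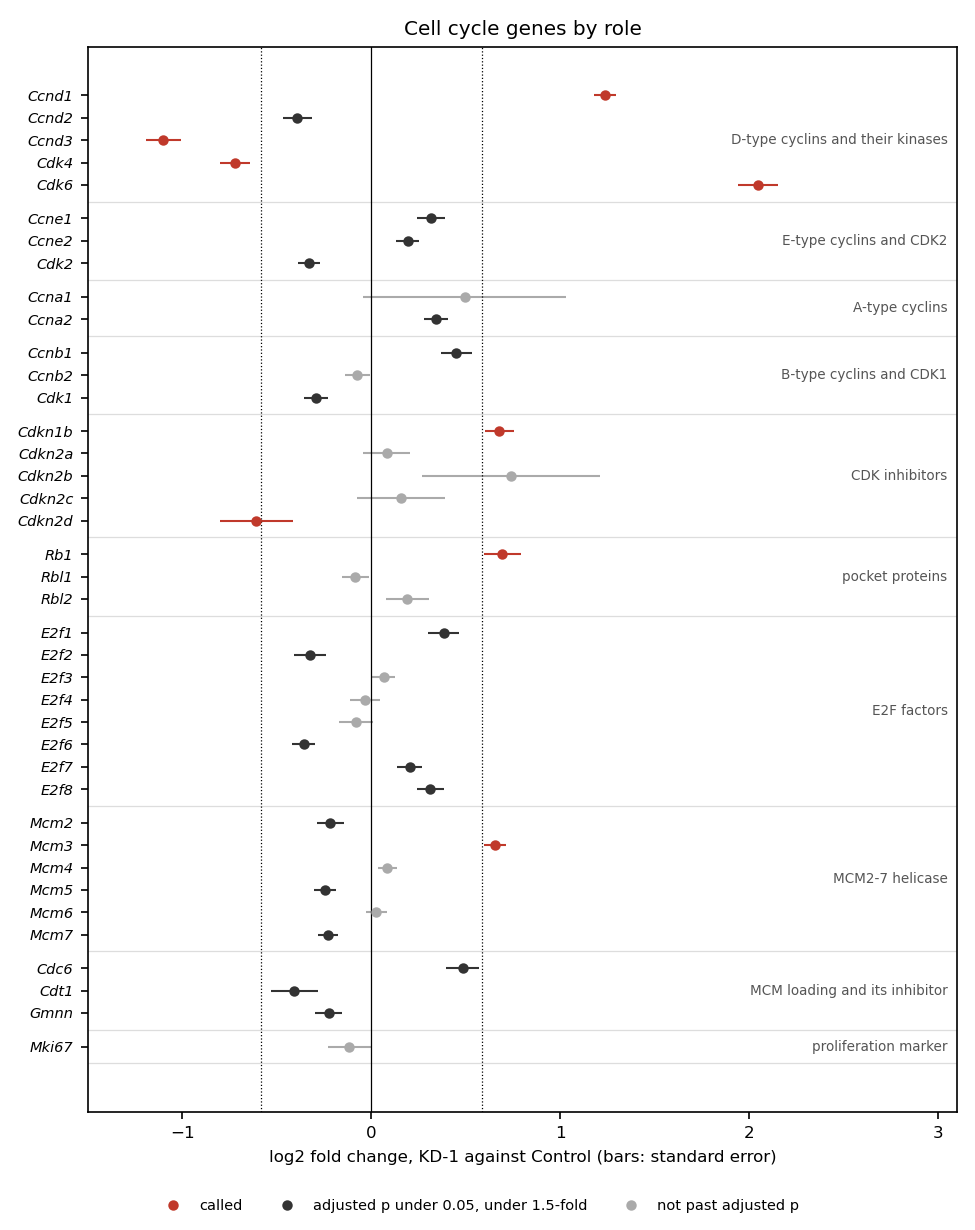
Log2 fold change of KD-1 against Control for the 39 genes, grouped by role (horizontal axis; points, edgeR estimates; bars, standard errors; dotted lines, a 1.5-fold change in either direction). The 8 genes called are in red, and 4 of them are D-type cyclins or their kinases, from -1.10 for *Ccnd3* to 2.05 for *Cdk6*.

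The D-type cyclins and their kinases were the role with the largest changes, with 4 of 5 genes called (80%, beside 37.7% of all genes). Of these, 2 went in each direction (beside 19.7% of all genes called higher and 18.1% lower), with paralogs moving apart. *Ccnd1* (ENSMUSG00000070348, GRCm39 chr7:144483668-144493662, minus strand), which encodes cyclin D1, measured 169, 180 and 166 CPM in the Control libraries of lowest, middle and highest depth and 419, 386 and 411 CPM in those of KD-1. Every KD-1 library lay above every Control library, and the gene rose 2.36-fold (log2 fold change 1.24, SE 0.06, edgeR adjusted p = 6.30e-07). *Ccnd3* (ENSMUSG00000034165, GRCm39 chr17:47815767-47910624, plus strand), which encodes cyclin D3, measured 62.3, 75.5 and 65.3 CPM in Control and 34.7, 30.2 and 30.0 CPM in KD-1. The groups did not overlap, and its level fell to 0.466 of Control (log2 fold change -1.10, SE 0.09, edgeR adjusted p = 1.60e-05). *Ccnd2*, for cyclin D2, measured 315, 257 and 295 CPM in Control and 219, 214 and 227 CPM in KD-1. It was lower in every KD-1 library and passed the adjusted p but not the fold threshold (log2 fold change -0.39, SE 0.08, edgeR adjusted p = 0.00224).

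*Cdk6* (ENSMUSG00000040274, GRCm39 chr5:3391485-3581008, plus strand) showed the largest fold change of the 39 genes. It measured 30.7, 23.0 and 29.9 CPM in Control and 112, 115 and 118 CPM in KD-1. The KD-1 libraries lay close together and far above Control, a 4.13-fold rise (log2 fold change 2.05, SE 0.11, edgeR adjusted p = 8.99e-07). *Cdk4* (ENSMUSG00000006728, GRCm39 chr10:126895180-126903789, plus strand), the partner kinase with the larger number of reads, measured 561, 693 and 658 CPM in Control and 388, 393 and 379 CPM in KD-1. It was lower in each KD-1 library and fell to 0.607 of Control (log2 fold change -0.72, SE 0.08, edgeR adjusted p = 7.86e-05). Protein-coding genes with exons as short as those of *Cdk4* (3440 bases) had a median log2 fold change of -0.18, and relative to it *Cdk4* was at -0.54, under the fold threshold. *Cdk6* has 14421 bases of exon, and relative to genes of like length (median 0.09) it was at 1.96. The summed level of the 5 genes overlapped between the groups, at 1138, 1228 and 1214 CPM in Control and 1172, 1139 and 1165 CPM in KD-1.

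**Figure D2:**
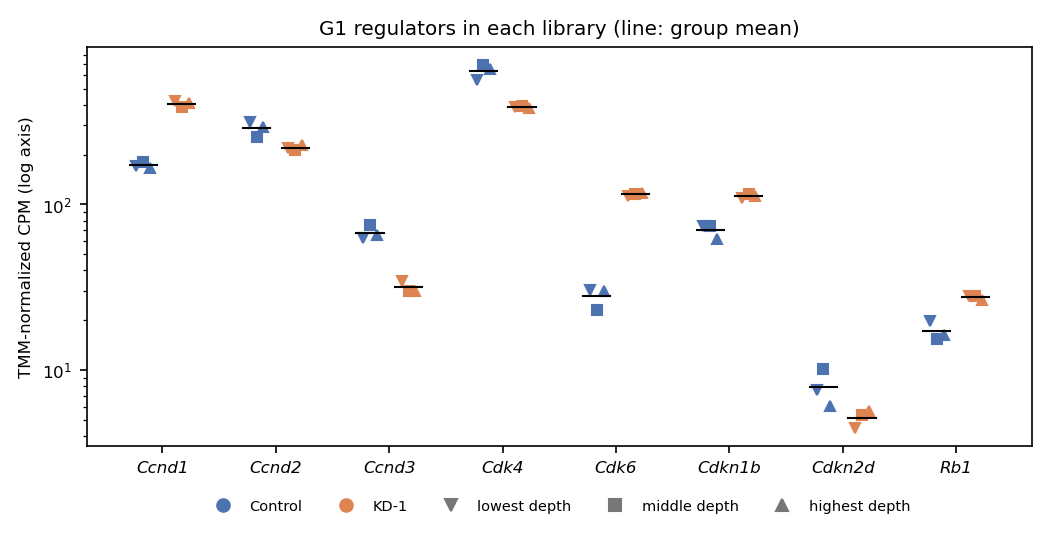
Level of 8 G1 regulators in each library (vertical axis, TMM-normalized CPM on a log axis; blue, Control; orange, KD-1; marker shape, depth within the group; black lines, group means of 3 libraries). The groups do not overlap for any of the 8, and the KD-1 libraries lie closer together than the Control libraries for most.

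Expressed per length, so that genes can be set beside each other, *Ccnd1* made up 46.8%, 51.5% and 47.5% of the D-type cyclin level in the Control libraries and 76.4%, 75.6% and 75.8% in KD-1. *Ccnd1* and *Ccnd2* thus shared most of the D-type cyclin level in Control, and *Ccnd1* alone held most of it in KD-1. The share of *Ccnd2* was 41.5% ± 3.65 (SD, n = 3) in Control and 20.99% ± 0.608 in KD-1, and that of *Ccnd3* 9.92% ± 1.15 and 3.07% ± 0.205. *Cdk6* made up 1.05% ± 0.253 of the per-length level of both kinases in Control and 6.62% ± 0.239 in KD-1, so *Cdk4* stayed the main kinase transcript in all 6 libraries. For each of these shares the groups did not overlap (exact two-sided permutation test, p = 0.1, the smallest that 3 against 3 libraries can give). These lengths are those of all annotated exons of a gene, and without division by length the share of *Cdk6* rose by 18.6 percentage points in place of 5.57. The order of the D-type cyclins in Control then turned, with *Ccnd2* at 54.6% and *Ccnd1* at 32.6%. In KD-1 *Ccnd1* was at 61.7% and *Ccnd2* at 33.5% on that scale.

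**Figure D3:**
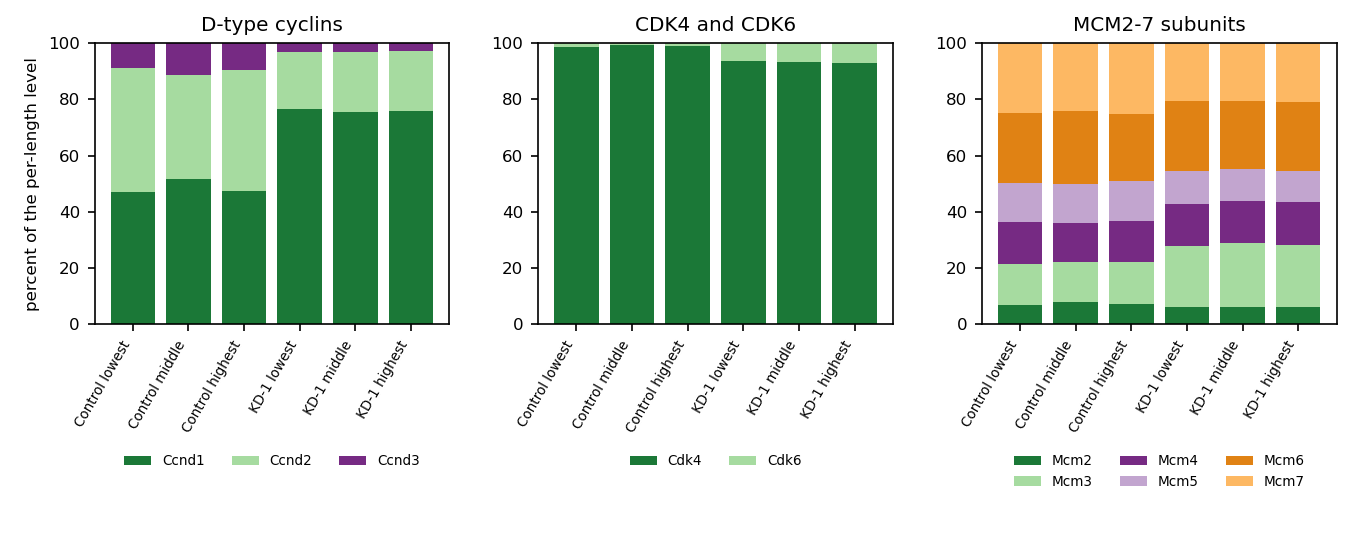
Share of each paralog in the per-length level of its family in each library (vertical axis, percent; bars named by group and by depth within the group). *Ccnd1* takes 46.8% to 51.5% of the D-type cyclin level in Control and 75.6% to 76.4% in KD-1, *Cdk6* a small share of the kinase level in both groups, and *Mcm3* a larger share of MCM2-7 in KD-1 than in Control.

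Of the 5 CDK inhibitors, 1 was called higher and 1 lower, near the share of all genes called (37.7%). *Cdkn1b* (ENSMUSG00000003031, GRCm39 chr6:134897364-134902476, plus strand) encodes p27, the inhibitor that binds cyclin E and cyclin A kinases and also assembles cyclin D kinases. It measured 74.2, 74.6 and 62.0 CPM in Control and 109, 115 and 112 CPM in KD-1. No KD-1 library overlapped Control, and it rose 1.60-fold (log2 fold change 0.68, SE 0.08, edgeR adjusted p = 1.03e-04). The INK4 inhibitors bind CDK4 and CDK6 and keep D-type cyclins off. *Cdkn2d* (ENSMUSG00000096472, GRCm39 chr9:21199700-21202727, minus strand) measured 7.57, 10.1 and 6.08 CPM in Control and 4.46, 5.36 and 5.66 CPM in KD-1. The groups were separated by less than 1 CPM, and its fall (log2 fold change -0.61, SE 0.19, edgeR adjusted p = 0.0229) depended on the Control library of middle depth: without it the log2 fold change was -0.37 (edgeR adjusted p = 0.0357), under the fold threshold. *Cdkn2d* was called in 6 of the 15 settings run on each gene, and the other 7 genes called were called in all 15.

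*Cdkn2a*, which encodes p16 and, from another reading frame, the p19 ARF protein, was at 14.5 ± 2.29 CPM in Control and 15.4 ± 1.45 CPM in KD-1 (SD, n = 3; edgeR adjusted p = 0.589). *Cdkn2b* measured 0.289, 0.622 and 0.379 CPM in Control and 1.03, 0.368 and 0.794 CPM in KD-1, and *Cdkn2c* lay between 1.16 and 1.78 CPM in Control and between 1.58 and 1.77 CPM in KD-1. The groups overlapped for these genes, and no difference was detected (edgeR adjusted p = 0.198 for *Cdkn2b* and 0.576 for *Cdkn2c*). Per length, *Cdkn2a* made up most of the summed level of the 4 INK4 genes, 70.8% ± 2.86 in Control and 78.2% ± 2.36 in KD-1. *Cdkn2d* made up most of the remainder, 26.9% ± 2.72 and 18.6% ± 2.92 (SD, n = 3). Counts are per gene, so the p16 and ARF transcripts of *Cdkn2a* were not separated.

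Among the pocket proteins, which hold E2F factors inactive, *Rb1* (ENSMUSG00000022105, GRCm39 chr14:73421113-73563507, minus strand) rose and its relatives did not pass the test. *Rb1* measured 19.7, 15.5 and 16.3 CPM in Control and 28.0, 28.2 and 26.5 CPM in KD-1. All KD-1 libraries were above all Control libraries, a 1.62-fold rise (log2 fold change 0.69, SE 0.10, edgeR adjusted p = 2.93e-04). *Rbl2*, for p130, measured 7.04, 6.13 and 7.38 CPM in Control and 7.75, 8.28 and 7.48 CPM in KD-1, just apart (log2 fold change 0.19, SE 0.11, edgeR adjusted p = 0.177). *Rbl1*, for p107, was at 37.0 ± 2.48 CPM in Control and 34.9 ± 0.739 CPM in KD-1 (SD, n = 3; edgeR adjusted p = 0.316). Per length, *Rbl1* was the main pocket protein transcript in both groups. Its share was 71.7% ± 0.833 in Control and 61.7% ± 0.476 in KD-1, and that of *Rb1* 20.1% ± 1.17 and 29.7% ± 0.240 (exact two-sided permutation test, p = 0.1 for each, the smallest possible).

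The cyclins and kinases of S phase and mitosis moved by less than the fold threshold. *Ccne1*, for cyclin E1, measured 53.3, 59.9 and 52.5 CPM in Control and 73.4, 66.3 and 66.8 CPM in KD-1 (log2 fold change 0.32, edgeR adjusted p = 0.00528). *Ccne2* was also slightly higher (0.19, edgeR adjusted p = 0.0199). Their kinase gene *Cdk2* measured 105, 103 and 113 CPM in Control and 82.6, 87.0 and 85.4 CPM in KD-1 (log2 fold change -0.33, edgeR adjusted p = 0.00110). The cyclin genes were thus higher and the kinase gene lower, each without overlap between the groups. *Ccna2*, the A-type cyclin of dividing somatic cells, measured 216, 233 and 203 CPM in Control and 274, 278 and 275 CPM in KD-1 (0.34, edgeR adjusted p = 0.00133). *Ccna1*, known from the germ line, measured 0.338, 0.118 and 0.180 CPM in Control and 0.382, 0.184 and 0.276 CPM in KD-1, overlapping, and no difference was detected (edgeR adjusted p = 0.444).

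The mitotic pair showed the same arrangement of cyclin and kinase. *Ccnb1*, for cyclin B1, measured 355, 295 and 355 CPM in Control and 476, 449 and 447 CPM in KD-1 (log2 fold change 0.45, SE 0.08, edgeR adjusted p = 0.00120). *Cdk1*, for its kinase, measured 244, 280 and 271 CPM in Control and 216, 217 and 215 CPM in KD-1 (-0.29, SE 0.06, edgeR adjusted p = 0.00335). Neither reached the fold threshold. *Ccnb2* was at 60.5 ± 3.68 CPM in Control and 57.5 ± 1.79 CPM in KD-1 (SD, n = 3; edgeR adjusted p = 0.343), with overlapping groups. *Ccnb1* made up 74.0% ± 3.28 of the per-length level of both B-type cyclins in Control and 80.5% ± 0.180 in KD-1.

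None of the 8 E2F genes was called, beside 37.7% of all genes tested. The adjusted p was passed by 5 (62.5%, beside 63.5% of all genes, so near the background). Of the activators, *E2f1* measured 25.1, 29.5 and 30.7 CPM in Control and 38.0, 37.6 and 36.1 CPM in KD-1, higher in each KD-1 library (log2 fold change 0.38, SE 0.08, edgeR adjusted p = 0.00378). *E2f2* was lower (-0.32, edgeR adjusted p = 0.00822), and *E2f3*, the activator with the largest per-length share in both groups (53.8% ± 3.20 in Control, 50.8% ± 0.815 in KD-1), was at 70.1 ± 4.21 CPM in Control and 73.3 ± 0.436 CPM in KD-1 (SD, n = 3; edgeR adjusted p = 0.373). Of the repressors, *E2f6*, which acts without pocket proteins, measured 56.1, 57.5 and 53.4 CPM in Control and 43.3, 44.2 and 42.8 CPM in KD-1. It was lower without overlap (-0.36, SE 0.06, edgeR adjusted p = 8.00e-04). The atypical repressors *E2f7* and *E2f8* were slightly higher, at 0.20 and 0.31 on the log2 scale (edgeR adjusted p = 0.0248 and 0.00474). *E2f4* and *E2f5*, which work with p107 and p130, overlapped between the groups (log2 fold changes -0.03 and -0.08, edgeR adjusted p = 0.741 and 0.455). The summed level of the 8 genes was 313 to 326 CPM in Control and 315 to 330 CPM in KD-1.

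The 6 subunits of the MCM2-7 helicase act as one ring, and 1 of the 6 was called (16.7%, beside 37.7% of all genes). The share past the adjusted p was 66.7%, beside 63.5% of all genes. *Mcm3* (ENSMUSG00000041859, GRCm39 chr1:20870791-20890536, minus strand) measured 282, 290 and 310 CPM in Control and 458, 470 and 462 CPM in KD-1. The groups were well apart, a 1.57-fold rise (log2 fold change 0.65, SE 0.06, edgeR adjusted p = 1.83e-05). *Mcm5* measured 293, 308 and 326 CPM in Control and 269, 258 and 255 CPM in KD-1, lower without overlap (-0.25, SE 0.06, edgeR adjusted p = 0.00609). *Mcm2* and *Mcm7* were lower by a like amount (-0.22 and -0.23, edgeR adjusted p = 0.0259 and 0.00507), and *Mcm4* and *Mcm6* did not pass the test (0.08 and 0.03, edgeR adjusted p = 0.177 and 0.700). Scaled by library size only, *Mcm2* did not pass the adjusted p and *Mcm4* did (edgeR adjusted p = 0.0724 and 0.0398). Per length, a comparison added after the values were seen, *Mcm3* made up 14.5% ± 0.35 of the MCM2-7 level in Control and 22.2% ± 0.441 in KD-1, *Mcm7* 24.8% ± 0.416 and 20.6% ± 0.232, and *Mcm6* 25.0% ± 0.931 and 24.7% ± 0.412 (SD, n = 3).

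*Mcm3* and *Mcm6* lie on chromosome 1, where many genes were higher in KD-1. Of the 871 genes tested on chromosome 1, 350 were called higher (40.2%, beside 19.7% of all genes) and 68 lower, with a median log2 fold change of 0.49, and the 10 genes tested within 1 Mb of *Mcm3* had a median of 0.99. Relative to the chromosome median *Mcm3* was at 0.16 and *Mcm6* at -0.46. The 4 subunits on other chromosomes had 0 calls, beside 37.7% of all genes called. In the main fit 3 of them were lower past the adjusted p (75%, beside 32.6% of all genes). Of the 39 genes, taken relative to their chromosome medians, 5 were called higher and 3 lower, with *Mcm3* lost and *Cdc6* added. This setting was not planned beforehand, and only the fold change was centred, with the adjusted p that of the main fit. The part of the chromosome in the rise of *Mcm3* was not tested.

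**Figure D4:**
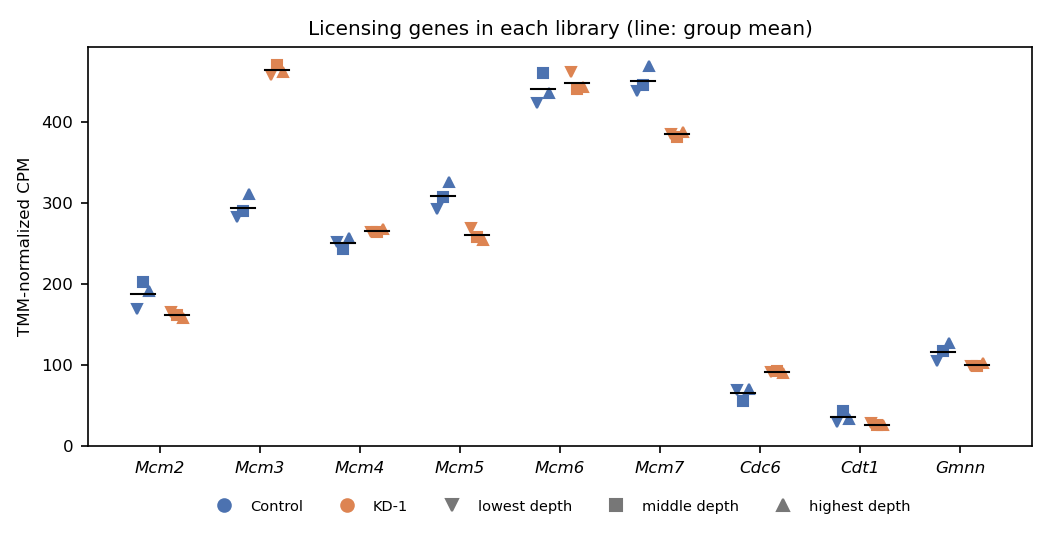
Level of the helicase subunits, their loading factors and geminin in each library (vertical axis, TMM-normalized CPM; blue, Control; orange, KD-1; marker shape, depth within the group; black lines, group means of 3 libraries). *Mcm3* goes from 282 to 310 CPM in Control to 458 to 470 CPM in KD-1, and *Mcm2*, *Mcm5* and *Mcm7* are lower in KD-1 by less.

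The loading factors moved in opposite directions below the fold threshold. *Cdc6* measured 69.7, 56.5 and 70.3 CPM in Control and 91.2, 93.0 and 90.4 CPM in KD-1, higher in each KD-1 library (log2 fold change 0.48, SE 0.09, edgeR adjusted p = 0.00118). *Cdt1* measured 30.0, 43.4 and 33.7 CPM in Control and 28.4, 26.6 and 26.0 CPM in KD-1 (-0.41, SE 0.13, edgeR adjusted p = 0.0196). The Control library of middle depth was the highest, and without it the log2 fold change of *Cdt1* was -0.25 (edgeR adjusted p = 0.00950). *Gmnn*, which encodes geminin, the inhibitor of CDT1, measured 106, 117 and 127 CPM in Control and 98.9, 98.9 and 102 CPM in KD-1 (-0.23, edgeR adjusted p = 0.0229).

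*Mki67*, transcribed in dividing cells, measured 553, 389 and 513 CPM in Control and 437, 441 and 465 CPM in KD-1. The groups overlapped only through the Control library of middle depth, and the log2 fold change was -0.12 (SE 0.12, edgeR adjusted p = 0.408). Without that library it was -0.25 (edgeR adjusted p = 9.06e-04), still under the fold threshold. Whether *Mki67* passed the adjusted p thus rested on 1 library.

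By phase, 7 of 13 G1 genes were called (53.8%), and 1 of 19 genes of the G1/S transition and licensing (5.26%), beside 37.7% of all genes tested. None of the 3 genes of S and G2, the 3 of G2 and mitosis or *Mki67* was called. Of the 19 genes of G1/S and licensing, 14 passed the adjusted p (73.7%, beside 63.5% of all genes). They were 7 higher and 7 lower, beside 4676 higher and 4921 lower of all genes. Without the D-type cyclins and their kinases, 4 of the remaining 34 genes were called (11.8%, beside 37.7% of all genes) and 21 passed the adjusted p (61.8%, beside 63.5%). Among the D-type cyclins, the E2F activators, the MCM2-7 subunits, the E-type cyclins with *Cdk2* and the B-type cyclins with *Cdk1*, genes past the adjusted p lay on both sides of Control.

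Other cell cycle genes were read from 7 lists, of which 137 of 139 genes were tested, 12 called higher and 14 lower (19.0%, beside 37.7% of all genes tested). Of the 32 genes of the replication fork and nucleotide supply, 6 were called lower (18.8%, beside 18.1% of all genes, so no more than the background) and 0 higher. Of these 32 genes, 23 passed the adjusted p (71.9%, beside 63.5% of all genes), 19 of them lower (59.4%, beside 32.6%), with a median log2 fold change of -0.26 beside -0.01 over all genes. Their exons are short (median 5632 bases, beside 6986 for the protein-coding genes used in the length comparison). Relative to genes of like length the median was -0.08, with 4 genes called lower. *Pold4*, a small subunit of DNA polymerase delta, had the largest fall, from 2.56, 3.46 and 3.52 CPM in Control to 1.24, 1.103 and 1.44 CPM in KD-1 (-1.33, SE 0.21, edgeR adjusted p = 5.34e-04). The polymerase subunits *Pold1* and *Pold2*, the clamp loader subunits *Rfc2* and *Rfc3* and the thymidine kinase *Tk1* also fell, by 0.63 to 0.90 on the log2 scale. Without the Control library of middle depth *Rfc3* was at -0.57, under the fold threshold, and relative to genes of like length *Pold2* and *Rfc3* were. Of the 13 origin firing genes, *Gins2*, part of the replicative helicase, was the one called (7.69%, beside 37.7% of all genes). It fell from 54.7, 73.4 and 69.0 CPM to 34.3, 32.7 and 32.5 CPM (-0.99, SE 0.10, edgeR adjusted p = 5.76e-05). Of the 10 origin recognition genes and MCM partners, *Orc2* was the one called (10%, beside 37.7% of all genes). *Orc2* was higher by 0.91 (SE 0.06, edgeR adjusted p = 2.57e-06), and it also lies on chromosome 1.

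Of 31 mitosis genes, 3 rose and 1 fell (12.9% called, beside 37.7% of all genes). *Ect2*, which starts cytokinesis, rose by 0.80 (SE 0.08, edgeR adjusted p = 5.08e-05), *Top2a* by 0.68 and *Anln* by 0.64, and *Pttg1*, for securin, fell by 0.75 on the log2 scale (edgeR adjusted p = 5.27e-05). The median of the mitosis list was 0.03. Of 16 regulators of CDK activity, 1 rose and 2 fell (18.8% called, beside the same 37.7%). *Cdc25b*, a phosphatase that activates CDK1, measured 9.31, 9.71 and 10.7 CPM in Control and 25.0, 25.1 and 25.4 CPM in KD-1, a 2.53-fold rise (edgeR adjusted p = 2.03e-06). *Cdkn1c*, for the inhibitor p57, fell by 0.72 (SE 0.19, edgeR adjusted p = 0.00912; -0.44 and not called without the Control library of middle depth, in which it was highest), and *Cks1b*, for a small CDK-binding protein, fell by 0.72 (SE 0.07, edgeR adjusted p = 4.10e-05). Of 8 E2F partners and MuvB genes tested, 3 rose and none fell (37.5% called, beside 37.7% of all genes). *Mybl1* rose by 1.29 (SE 0.08, edgeR adjusted p = 2.57e-06), *Mybl2*, for B-MYB, the partner of MuvB on mitotic genes, by 0.83 and *Lin9*, a MuvB subunit, by 0.65. *Mybl1* and *Lin9* lie on chromosome 1. Without the genes of chromosome 1, the lists together held 9 genes called higher and 13 lower. Without the Control library of middle depth they held 13 and 12, and relative to genes of like exon length 12 and 7, with *Pttg1*, *Cdkn1c* and *Cks1b* no longer called.

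**Figure D5:**
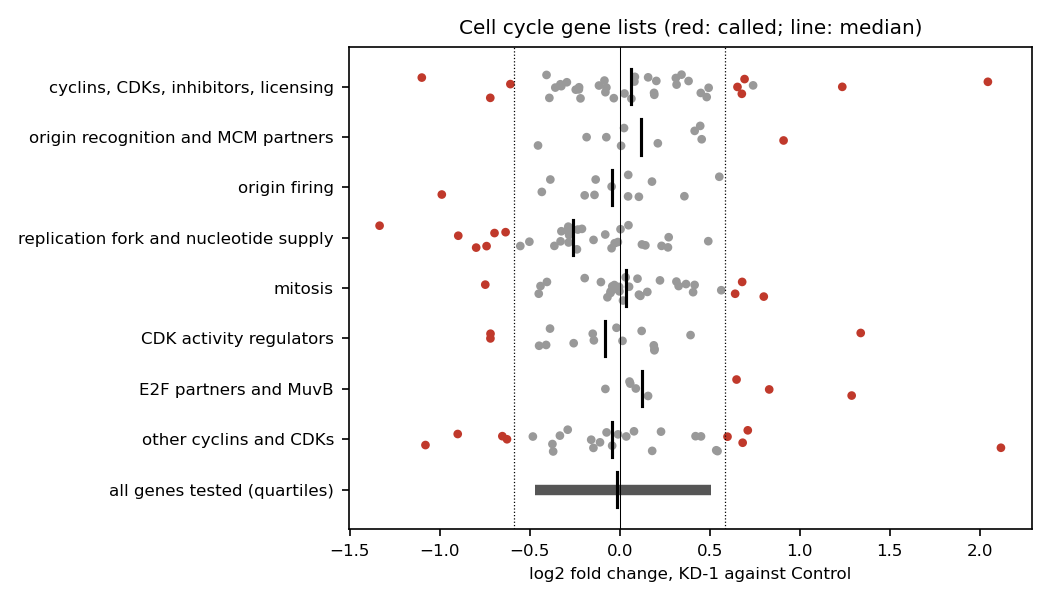
Log2 fold change of each gene of the 39 and of the 7 further cell cycle lists (horizontal axis; red, called; grey, not called; black lines, medians; dotted lines, fold thresholds; bottom bar, quartiles of all genes tested, -0.47 and 0.51). The replication fork list has the lowest median, -0.26, and its 6 called genes are all lower.

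Summed levels of cell type markers also differed between the groups. The summed level of 9 naive pluripotency markers was 479, 429 and 473 CPM in Control and 1431, 1405 and 1440 CPM in KD-1, with 7 of 9 called higher (beside 19.7% of all genes called higher and 18.1% lower, as for the lists that follow). Per length, *Nanog* was the most abundant of them in both groups. The summed level of 8 presomitic and somitic markers was 515, 592 and 537 CPM in Control and 46.2, 45.6 and 46.1 CPM in KD-1, with all 7 genes tested called lower, *Meox1* the most abundant in Control and *Pax3* in KD-1. Its defining marker *Msgn1* had at most 3 counts in every library of both groups. The 6 neural markers summed to 155 to 158 CPM in Control and 244 to 252 CPM in KD-1, with 4 called higher and *Nes* lower under the fold threshold (-0.44). Per length, *Nes* was the most abundant in Control and *Tubb3* in KD-1. The 6 tail bud markers summed to 55.1 to 63.1 CPM and 49.5 to 53.3 CPM, with 1 called higher and 3 lower, *Cdx2* the most abundant in Control and *Nkx1-2* in KD-1. The 4 endoderm markers summed to 14.5 to 15.5 CPM in Control, nearly all *Cer1*, and to 0.67 to 0.883 CPM in KD-1. The fall of this sum was that of *Cer1*, while *Sox7* was called higher at a low level (0.123 to 0.588 CPM, log2 fold change 2.23, edgeR adjusted p = 0.0113) and *Sox17* and *Foxa2* were too low to be tested. The 5 markers of endothelium and blood summed to 16.2 to 17.7 CPM in Control and 29.7 to 31.8 CPM in KD-1. The rise of this sum was that of *Pecam1* alone (14.5 to 29.4 CPM), while *Kdr* was called lower (-0.83), *Cdh5* and *Hba-x*, not tested, had lower means in KD-1, and *Gata1* had no more than 3 counts. The 4 cardiac markers summed to 4.58 to 5.94 CPM and 0.429 to 0.621 CPM, with *Nkx2-5* at no more than 3 counts. No marker was at 0 in all libraries. The part of cell type composition in the levels of the cell cycle genes was not tested.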

How the data were processed

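TruSeq libraries from day 5 gastruloids, 3 of Control and 3 of KD-1, were sequenced as paired-end reads. The authors quantified reads with Salmon (version 1.1, per the labels) against a Gencode annotation (its species series and build are not given in the sources used here) and deposited estimated counts per Ensembl gene in whole numbers, without normalization. Strand use, the summing of transcripts to genes and rounding are not given there either. Since Salmon assigns reads by probability, counts of overlapping genes and near-identical copies are uncertain. Column names give the group of a library but not its replicate, so libraries are named by depth. The design calls the replicates biological and does not say what was repeated, so p-values measure the spread between these libraries.

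Names, positions and exon lengths came from GENCODE vM39 on GRCm39 (35222 of 35565 identifiers matched), and promoters from RefSeq on GRCm38.p6. The identifier of *Lin54* was not matched, and *Lin54* was not analysed here. The test was the robust quasi-likelihood test of edgeR (version 4.0.16, under R 4.3.3) on the genes kept by filterByExpr at its defaults, with TMM scaling and a model of condition alone. P-values were adjusted by Benjamini-Hochberg over all 15110 genes. The fit was checked on simulated data. Per-length levels are counts per kb of all annotated exons, scaled to the same total in each library. Limits of 3 counts cover counting error only. Alternatives were DESeq2 (version 1.42.0), limma-voom (version 3.58.1), other scalings, filters and fold thresholds, each library left out, and chromosome 1 left out. All same-group library pairs differed by more than sampling noise and were kept. All 39 genes are accounted for, with values in every library for those called and the 2 with the largest fold changes of each role; of each further list the largest called rise and fall are named, and further called genes of these lists were named after their values were seen. The members and lists were chosen with earlier results of these data known.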

Additional observations from a re-analysis of the deposited data

How the results depend on the processing

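Of the 8 genes called, all but *Cdkn2d* were called in each of the 15 settings run on single genes (tools, scalings, filters, and each library left out). *Cdkn2d* was not called in 9, at -0.58 with DESeq2, -0.52 with limma-voom, -0.58 with RLE scaling, -0.55 with library size only, -0.58 with TMM factors taken without chromosome 1, -0.56 when each library had to hold at least 10 counts, and without 1 of 3 libraries, at -0.37 (Control, middle depth), -0.50 (KD-1, lowest depth) and -0.62 (KD-1, middle depth, edgeR adjusted p = 0.0603). Over all leave-outs it lay between -0.78 and -0.37. Leaving out a library kept 5 of the 39 genes called higher and 2 or 3 lower. Of the genes past the adjusted p but under the fold threshold, *Ccne2*, *E2f2*, *E2f7*, *Mcm2*, *Cdt1* and *Gmnn* did not pass it in every setting. Their highest adjusted p over the settings, which include edgeR, DESeq2 and limma-voom, was 0.0722, 0.0613, 0.0750, 0.111, 0.0792 and 0.0957, in that order. *Mcm4* and *Mki67*, not past it in the main fit, passed it in at least 1 setting (lowest edgeR adjusted p 0.0398 and 9.06e-04). With an absolute log2 fold change over 1, 2 of the 39 genes were called higher and 1 lower, 3 and 2 genes of the further lists, and 1948 and 1326 of all genes. With no fold threshold these were 13 and 13, 40 and 46, and 4676 and 4921. Relative to genes of like exon length, a setting added after the values were seen, 1 of the 39 genes was called lower, and 7 genes of the further lists.

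Signs turned for 3 genes that passed no test. *E2f4* was at 0.0252 with library size only, at 0.0108 under the filter of 10 counts, and between -0.0971 and 0.0324 with 1 library left out. *Mcm6* lay between -0.00278 and 0.0580 and *Cdkn2c* between -0.0338 and 0.317 with 1 library left out. No scaling moved the median of all genes by more than 0.06. *Ccna1* and *Cdkn2b* were not tested under the filter of 10 counts. No paired analysis was possible because the columns of the count table carry no replicate numbers that match those of the labels. Of the 39 genes, *Ccna1*, *Cdkn2b* and *Cdkn2c* were under 2 CPM in every library and are the least precise.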

Other observations

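Of 27 further cyclins and CDKs tested, most with roles outside the core cycle, 4 rose and 4 fell (29.6%, beside 37.7% of all genes tested). *Ccno*, known from cells that form many cilia, had 5, 20 and 16 counts in the Control libraries of lowest, middle and highest depth and 82, 58 and 144 counts in those of KD-1, a rise of 2.12 on the log2 scale (SE 0.37, edgeR adjusted p = 0.00102) at a level under 2 CPM. *Ccnc*, for the cyclin of the Mediator kinase module, measured 39.2, 38.3 and 33.7 CPM in Control and 59.2, 58.8 and 63.6 CPM in KD-1 (0.71, edgeR adjusted p = 6.32e-05). *Cdk17* (0.68) and *Ccng1* (0.60) also rose.

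The cyclin G paralogs moved apart. *Ccng1* measured 399, 379 and 363 CPM in Control and 566, 575 and 588 CPM in KD-1 (edgeR adjusted p = 3.13e-05), and *Ccng2* 43.6, 44.9 and 43.7 CPM in Control and 22.6, 25.0 and 23.3 CPM in KD-1 (-0.90, SE 0.07, edgeR adjusted p = 7.49e-06). No library of one group overlapped the other for either gene. *Ccnjl* had the largest fall of this list (-1.08, SE 0.12, edgeR adjusted p = 9.13e-05), and *Cdk18* (-0.65) and *Cdk20* (-0.63) fell at levels under 10 CPM; each was called in 12 of 15 settings, and *Ccng1* in 14. Relative to genes of like exon length *Cdk18* and *Cdk20* were not called. *Cdk18* lies on chromosome 1, against whose median of 0.49 its direction was opposite.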
